A study of Mus musculus with 4 samples.

Results

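The regions described here are the reproducible Foxr2 binding sites that lay over an exon but away from gene starts in the mouse Foxr2 p53LOF line. They were chosen by measured values: a site is the stretch of bases shared by peaks of both Foxr2 p53LOF replicates, each peak with a fold enrichment above 6, a length under 10000 bp and no overlap of 10 bp or more with a peak of the V5 control. A site was kept where it lay over 1 kb from every annotated transcript start and touched an exon of a protein-coding transcript. This left 273 exon sites of 11947 reproducible sites, beside 1416 intronic sites, 1750 intergenic sites, 8507 sites within 1 kb of a start and 1 site on a scaffold with no annotated start. Since the folds chose the sites, they are given as a description with no test.

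The study asked where Foxr2 binds DNA in tumor cells, and mapped it by CUT&RUN, in which an antibody guides a nuclease to the protein and the DNA cut free around it is sequenced. The Foxr2 p53LOF samples (2 replicates, genotype given as FOXR2 P53LoF) came from a C57BL/6J mouse line grown from a tumor that had been induced by in utero electroporation (IUE) of the ganglionic eminences. FOXR2 carried a V5 tag, was driven from a piggyBac vector by the ubiquitous CAG promoter and was delivered together with a CRISPR vector against Trp53. The V5 control (2 replicates, genotype H3.3G34R, also C57BL/6J and IUE) was a line from a separate model that lacked the tag, and all 4 samples received the V5 antibody after cross-linking with 0.1% formaldehyde for 1 minute. The binding was therefore that of a tagged, overexpressed protein in 1 Foxr2 p53LOF line, and control and Foxr2 lines differed in genotype as well as in the tag. The sources do not say whether the replicates were separate cultures, so the spread between them may be technical.

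Foxr2 is a forkhead-box protein, little expressed in normal brain, that acts as an oncogene when it is turned on in neural tumors. Most transcription factors are found at promoters and distal enhancers, while exons are under selection for the protein they encode and for splicing, so binding over exons is usually read together with what lies next to them. ETS proteins, which recognise GGAA sequences, AP-1, which binds TGACTCA or TGAGTCA, and SOX proteins, which are high in neural and glial progenitors, are among the factors whose letters were searched for here.

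The replicates of the Foxr2 p53LOF line held 31909 and 38580 peaks (13418 and 14864 after the filters), and those of the V5 control 308 and 124. A fold is the number of fragments at the summit plus 1 over the background of the same library plus 1, so it can be turned back into fragments. In replicate 1 each fragment added 0.442 to the fold and in replicate 2 it added 0.329. With that added 1 taken off, the weakest exon sites rested on 13 fragments in replicate 1 (95% Poisson interval 6.92 to 22.2) and 18 in replicate 2 (10.7 to 28.4), the median exon site on 18 (10.7 to 28.4) and 29 (19.4 to 41.6), and the strongest on 79 and 145. All intervals here cover counting error only.

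The following stretches of 120 bp surround the mean of both summits, on the strand of the gene, in GRCm38 (mm10) with the RefSeq assembly as the source of the bases. The first set shows sites whose summits both lay in coding sequence, since there the binding maximum itself is in protein-coding bases; they were picked from 16 such sites after their values were seen. Capitals mark only ETS core, AP-1 and full SOX letters, and the other letters searched for, such as the shorter SOX core ACAAT or ACAAAG, stay in lower case. They mark TTCCGG (the ETS core CCGGAA on the other strand) in Synpo2l and ACAATGG (the SOX letters CCATTGT on the other strand) in Supt6.
Dst, chr1:34189862-34189981, plus strand: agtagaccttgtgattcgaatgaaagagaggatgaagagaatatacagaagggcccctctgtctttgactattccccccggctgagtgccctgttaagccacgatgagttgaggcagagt
Supt6, chr11:78216178-78216297, minus strand: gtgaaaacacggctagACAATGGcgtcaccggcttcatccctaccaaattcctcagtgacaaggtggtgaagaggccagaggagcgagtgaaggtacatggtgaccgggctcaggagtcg
Zfp697, chr3:98427843-98427962, plus strand: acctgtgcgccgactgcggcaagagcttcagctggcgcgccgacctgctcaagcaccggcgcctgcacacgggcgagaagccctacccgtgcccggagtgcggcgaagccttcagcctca
Zfp771, chr7:127254347-127254466, plus strand: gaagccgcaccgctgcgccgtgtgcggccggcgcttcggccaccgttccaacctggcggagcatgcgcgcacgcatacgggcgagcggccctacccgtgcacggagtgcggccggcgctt
Synpo2l, chr14:20661319-20661438, minus strand: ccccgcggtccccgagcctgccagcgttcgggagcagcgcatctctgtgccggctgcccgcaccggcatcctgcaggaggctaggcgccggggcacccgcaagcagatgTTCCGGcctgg
Ccdc92b, chr11:74638268-74638387, plus strand: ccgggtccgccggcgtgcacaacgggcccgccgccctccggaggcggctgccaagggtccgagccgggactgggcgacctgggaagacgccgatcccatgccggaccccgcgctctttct
In all but Supt6, where 93 of 120 bases are coding, every base shown is coding sequence. The stretches of Zfp697, Zfp771, Synpo2l and Ccdc92b had a GC content of 70%, 75%, 74.2% and 75.8% and held 14, 21, 13 and 17 CpG dinucleotides, while Dst had 49.2% GC and 3 CpG.

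The second set shows the 3 exon sites with the highest lower fold, where the summits lay beside the exon, and Cacna1b, which overlapped an exon by 6 bp and is shown because its summit stretch held the AP-1 letters (capitals). The shorter SOX core, not marked, was also present in the Cacna1b and Itga2 stretches, and the forkhead letters TGTTTAC, on the other strand and not marked, in that of Itga2.
Sh2d6, chr6:72512680-72512799, minus strand: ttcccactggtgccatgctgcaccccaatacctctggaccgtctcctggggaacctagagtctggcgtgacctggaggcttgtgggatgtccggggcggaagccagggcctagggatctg
Gpr37l1, chr1:135159092-135159211, minus strand: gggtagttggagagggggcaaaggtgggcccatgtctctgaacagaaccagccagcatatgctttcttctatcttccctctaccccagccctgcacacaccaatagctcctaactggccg
Itga2, chr13:114839059-114839178, minus strand: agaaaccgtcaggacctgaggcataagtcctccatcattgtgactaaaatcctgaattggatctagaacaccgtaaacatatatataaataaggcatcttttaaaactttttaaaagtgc
Cacna1b, chr2:24642903-24643022, minus strand: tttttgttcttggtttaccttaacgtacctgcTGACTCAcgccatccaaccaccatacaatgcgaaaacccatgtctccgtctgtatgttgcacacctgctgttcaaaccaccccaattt
None of these 4 stretches held a coding base. GC content was 63.3% in Sh2d6, 55.8% in Gpr37l1, 35% in Itga2 and 45.8% in Cacna1b.

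Over the 273 exon sites the fold ranged from 6.19 to 35.3 in replicate 1 (median 8.39) and from 6.24 to 48.0 in replicate 2 (median 9.86). The fold was higher in replicate 2 at 211 sites (77.3%), close to the share at intronic (78.6%), intergenic (75.5%) and start sites (74.4%). The lower of both folds had a median of 7.95 (quartiles 6.63 and 10.2), against 7.56 at intronic, 7.95 at intergenic and 9.72 at start sites. Both folds exceeded 10 at 72 exon sites (26.4%), against 21.7% of intronic, 24.97% of intergenic and 46.1% of start sites. The Spearman correlation between replicate 1 and replicate 2 was 0.670 across exon sites (n = 273), with 0.595 over intronic and 0.799 over start sites. The folds over exons were thus in the range of other sites away from starts.

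**Figure D1:**
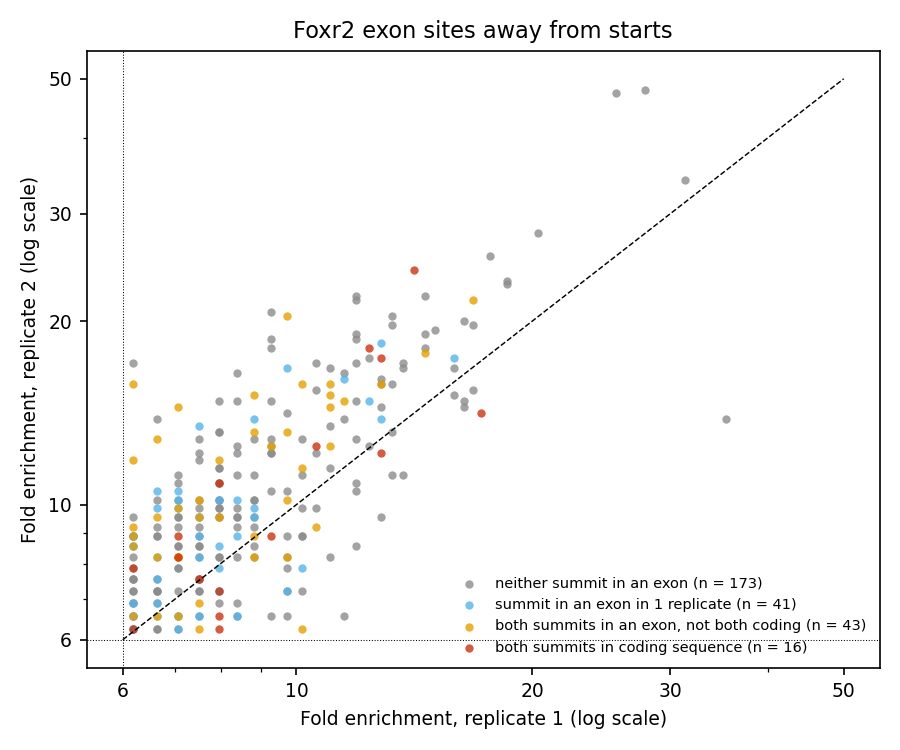
Fold enrichment of the 273 exon sites in replicate 1 (horizontal, log scale) and replicate 2 (vertical, log scale), 1 point per site. Colours give the position of the summits, dotted lines the minimum fold of 6 and the dashed line equal folds. Most points lie above the dashed line, and the sites with both summits in coding sequence reach 14.1 on their lower fold.

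By the rule itself no peak of the V5 control could overlap the peaks of an exon site by 10 bp, so the 0 of 308 and 0 of 124 control peaks over exon sites are no finding. The nearest control peak stood 2264 bp from a site, at Tuba1a, a tubulin gene (folds 7.95 and 7.23, named for this distance after its values were seen). The control filter removed 4 shared stretches that otherwise met the rule, which are named here after their values were seen. They lay over Hjurp, a centromere chaperone gene (folds 7.51 and 6.90), Lars2, the mitochondrial leucyl-tRNA synthetase gene (42.0 and 48.0), Mid1 (12.8 and 13.8), and the gene model Gm11168 (622 and 602). The highest fold of any of them, at Gm11168, was far above that of every exon site kept.

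The label of these sites describes overlap more than position of the maximum. At 173 of 273 sites (63.4%, 95% Wilson interval 57.5 to 68.9) neither summit was in an exon of a protein-coding transcript, at 41 (15.02%, 11.3 to 19.7) the summit of 1 replicate was, and at 59 (21.6%, 17.1 to 26.9) both were. In replicate 1 the summit lay in an intron at 143 sites, outside genes at 50, in 3′ UTR at 46, in coding sequence at 34 and in 5′ UTR at 0. In replicate 2 the same counts were 140, 54, 47, 29 and 3. Both summits lay in coding sequence at 16 sites (5.86%, 3.64 to 9.31) and in 3′ UTR at 34 (12.5%, 9.05 to 16.9). Summits outside an exon were at a median distance of 323 bp from it in replicate 1 and 324 bp in replicate 2, and 207 (75.8%) and 211 (77.3%) of all summits were in an exon or within 500 bp of it. The summits of the replicates were a median of 100 bp apart, and within 200 bp of each other at 170 sites (62.3%). The median gap was 111 bp at intronic, 92.5 bp at intergenic and 84 bp at start sites. The rule keeps only sites where peaks of both replicates overlap, so it sets part of this closeness.

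**Figure D2:**
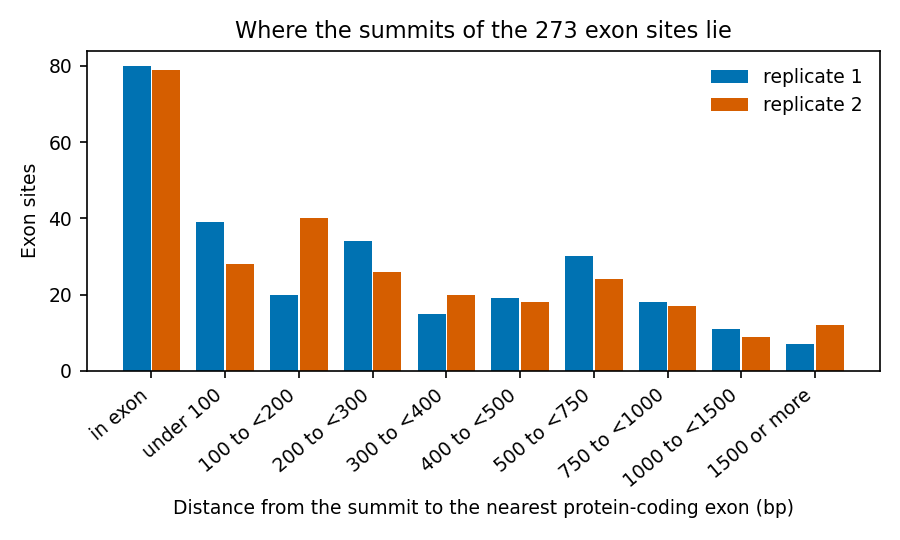
Number of exon sites (vertical) by the distance in bp from the summit to the nearest exon of a protein-coding transcript (horizontal, classes of unequal width) in replicate 1 (blue) and replicate 2 (orange). Summits outside an exon number 193 and 194 of 273, and their median distances are 323 and 324 bp.

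Sites had a median length of 1431 bp (62 to 7576), longer than most exons, and the median exon site held 231 bp of exon (5 to 4988), or 16.8% of its bases. Only 28 sites (10.3%) were exon throughout, 64 (23.4%) were exon over at least 50% of their length, and 88 (32.2%) over under 10% of it. Coding sequence was touched by 205 sites (75.1%), 3′ UTR by 134 (49.1%) and 5′ UTR by 16 (5.86%). The rule leaves out sites near starts and so much 5′ UTR, and these shares were not set against the exon bases available. The last exon of a transcript with several exons was touched by 139 sites (50.9%, 45.01 to 56.8), and 9 more lay over single-exon transcripts, which are not counted there. Of the summits outside genes, 48 of 50 in replicate 1 and 51 of 54 in replicate 2 were on the 3′ side of the exon, past the exon in the direction of transcription. The rule largely fixes this count, since a summit outside genes on the 5′ side would lie near a start, so it is no finding. Intronic summits were on the 3′ side of the exon in 63 of 143 (44.1%, 36.2 to 52.2) and 63 of 140 cases (45%, 37.0 to 53.3). A single exon block was touched by 226 sites, 2 blocks by 36 and 3 or more by 11.

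The distance to the nearest start had a median of 5438 bp. It was between 1 and 2 kb at 58 sites, between 2 and 5 kb at 69, between 5 and 10 kb at 59, between 10 and 50 kb at 82 and over 50 kb at 5. The 5 farthest, named for this distance after their values were seen, were over exons of Tox, a thymocyte HMG-box factor (146886 bp), Sox6 (122338 bp), Myo1d (108911 bp), Zdhhc14 (85253 bp) and Syne1 (67349 bp). These distances depend on the annotation, since RefSeq starts lay 140314 bp from the Tox site but 22082 bp from Sox6, 6525 bp from Myo1d, 26012 bp from Zdhhc14 and 37053 bp from Syne1. A RefSeq start, which the rule did not use, lay within 1 kb of 12 sites (4.40%, 2.53 to 7.52), and at 33 sites (12.1%) a whole peak reached within 1 kb of a start although the shared stretch did not. At those sites a fold may be that of a summit near the start. Both summits were inside the shared stretch at 251 sites (91.9%) and neither was at 5.

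The 25 exon sites with the highest lower fold are shown by replicate. The highest lay over the last exon of Sh2d6, an SH2-domain protein gene, with folds of 31.4 and 34.2 (chr6:72511246-72514232). Next was the last exon of Gpr37l1, a glial G-protein-coupled receptor gene, with 27.8 and 48.0 (chr1:135156544-135160902). In both, the summits of both replicates were past the gene end, 881 to 1092 bp from the exon. Itga2, the integrin subunit of a collagen receptor, followed with 25.6 and 47.3 over exon 28 of 30 (chr13:114837436-114840424), its summits 376 and 378 bp into an intron. At Gpr37l1 and Itga2 the replicates differed most in absolute fold among these 3, while at Sh2d6 they were close.

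Btd, which encodes the biotin-recycling enzyme biotinidase, had 2 sites in this group, an intronic one with 20.3 and 27.9 and one past its last exon with 18.6 and 23.3. The replicate summits of the intronic one were 2493 bp apart, so its folds come from different positions. The secreted C-type lectin gene Clec11a had 18.6 and 23.0 at 1028 bp from a start. The site at Vwa8 (17.7 and 25.6) held 20 bp of its last exon, and the one at Dip2b (16.8 and 19.7) 126 bp of exon 4 with both summits 3320 and 3296 bp away in an intron. At Vwa8 the replicate summits were 3330 bp apart, and the replicate 1 peak reached to 337 bp from a start. Exon made up 0.378% of the Vwa8 site and 2.51% of the Dip2b site.

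Synrg, the gene of the clathrin-adaptor partner synergin gamma, was the highest site with both summits in an exon: it had folds of 16.8 and 21.7 and all of its 1355 bp were exon 20 of 20, with both summits in 3′ UTR. Usp47, a deubiquitinase gene, was the other site among the 25 with both summits in 3′ UTR, with 14.6 and 17.7. In coding sequence the highest were Dst, the cytoskeletal linker dystonin (14.1 and 24.3, exons 35 to 36 of 98), and Gpat4, a glycerol-3-phosphate acyltransferase (17.2 and 14.1, exons 11 to 13 of 13). At Thbs4, a thrombospondin gene (15.9 and 17.4), the summit was in an intron in replicate 1 and in 3′ UTR in replicate 2. The other 20 sites of the group had neither summit in an exon.

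Sox21, a SOX factor gene of neural progenitors, had folds of 16.8 and 15.4, with both summits past its single exon. The limb T-box gene Tbx4 (15.9 and 16.8) and the SH2 adaptor gene Shf (16.3 and 20.04) also had both summits outside genes, as did the small-GTPase gene Arl5c (14.6 and 19.1), the J-protein gene Dnajb12 (14.6 and 22.01) and the kelch protein gene Enc1 (16.3 and 14.5). Summits in introns were found at Fbxl22 (15.9 and 15.1), at the Csk-binding adaptor gene Pag1 (15.02 and 19.4), at the stress cytokine gene Gdf15 (16.3 and 14.8), at the receptor phosphatase gene Ptprb (14.6 and 18.1) and at the scaffold gene Nedd9 (13.7 and 17.1). In Sox21, Enc1, Fbxl22 and Gdf15 replicate 1 had the higher fold, against the direction of most exon sites.

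Ptma, the gene of the nuclear protein prothymosin alpha, stood apart with 35.3 in replicate 1 and 13.8 in replicate 2. Its site was a stretch of 179 bp on the edges of both peaks, the replicate 1 peak covered a start, and both summits lay outside the site, so the 2 folds did not measure the same position. The rank of Ptma among the 25 rests on that stretch.

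**Figure D3:**
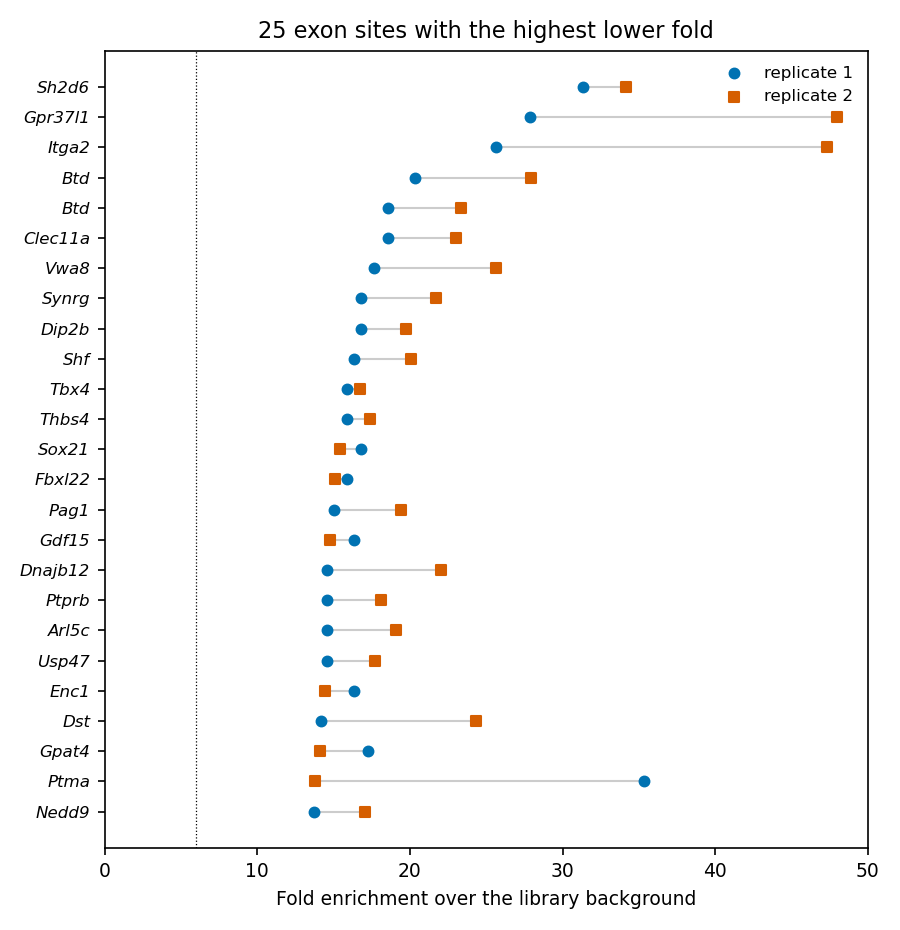
Fold enrichment (horizontal, linear) of the 25 exon sites with the highest lower fold, named by the gene whose exon they touch, in replicate 1 (circles) and replicate 2 (squares). The dotted line is the minimum fold of 6, and a grey line joins the replicates of a site. Gpr37l1, Itga2 and Ptma have the widest gaps between the replicates.

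Exon sites touched 286 of 22028 protein-coding genes, a background of 1.3% of genes against 39.8% (8764) with a reproducible site at one of their own starts. Of the 286, 21 were gamma protocadherin genes that share a single site over their common exons, and without them the count was 265 (1.203%). Of the genes with an exon site, 158 (55.2%, 49.5 to 60.9) also had a site at their own start, a share above the 39.8% of all genes and below the 66.2% (63.2 to 69.1) of the 982 genes with an intronic site. Without the gamma protocadherins it was 59.2% (53.2 to 65.0), an interval that overlaps that of the genes with an intronic site. An intronic site was also present in 55 (19.2%, 15.1 to 24.2), against 4.46% of all protein-coding genes. These genes were long, with a median of 4361.5 bp of exon and 38327.5 bp of gene, against 2848 bp and 17318 bp over all protein-coding genes, and length was not adjusted for in these shares.

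No gene had more than 2 exon sites, and 12 genes had 2: Btd, Capg, Dip2b, Dnajb12, Dst, H3f3b, Midn, Ptma, St8sia1, Syne1, Tns3 and Unc80. Some of these pairs lay over different exons of a long gene. Dst had, besides the coding site above, a site with 8.84 and 8.87 and both summits in a 3′ UTR, and Dip2b had a second site with 9.28 and 18.1 over exon 13 of 38. Syne1, which encodes the nuclear envelope protein nesprin 1, had folds of 11.5 and 16.4 over exon 55 and of 9.28 and 12.5 over exon 46 of 146, and St8sia1, a ganglioside sialyltransferase gene, had 11.9 and 10.5 over exon 4 and 7.51 and 7.56 over exon 3 of 5. Unc80, a subunit of the sodium leak channel, had 12.8 and 18.4 over exons 39 to 40 and 8.39 and 16.4 over exon 43 of 65.

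Other pairs were close together or came from peaks that were broken differently in the replicates. The sites of Midn (7.95 and 10.2, then 7.07 and 10.2) had the same replicate 2 fold, from a summit outside both sites. Those of Ptma (35.3 and 13.8, then 6.63 and 13.8) shared a replicate 2 summit that lay inside the longer site. The sites of H3f3b, a histone H3.3 gene, had 6.19 in replicate 1 both times, with 8.54 and 11.8 in replicate 2, and were 892 and 62 bp long. Capg, which encodes an actin-capping protein, had 7.07 and 7.88 over its last exon and 8.39 and 6.57 over exon 8 of 10.

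At the 16 sites with both summits in coding sequence the lower fold had a median of 7.73 and reached 14.1. Below Dst and Gpat4, and named after their values were seen, were the adjoining genes Lrrc14 and Lrrc24 (12.8 and 17.4), Actn1, an actinin (12.4 and 18.1), Supt6, a transcription elongation factor (12.8 and 12.2), and Zfp697, a zinc-finger gene (10.6 and 12.5). Apold1 (9.28 and 8.87), Zfp771 (7.95 and 10.8), Ano8 (7.51 and 7.56), Synpo2l (7.95 and 7.23), Ccdc92b (7.07 and 8.21) and Tenm3, a teneurin (7.07 and 8.87), followed. The lowest were Vsig8 (7.95 and 6.57), Rnf39 (7.95 and 6.24), Dnajc16 (6.19 and 7.88) and Bhlhe22, a neuronal bHLH factor (6.19 and 6.24). A last exon was touched by 12 of the 16, and at 10 of them (62.5%, 38.6 to 81.5) the 200 bp at the centre were CpG-rich, that is with a GC content above 55% and over 0.6 of the CpG expected from it. Dst, Apold1 and Rnf39 had a RefSeq start inside the site although no GENCODE start was within 1 kb.

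At the 34 sites with both summits in 3′ UTR the lower fold had a median of 8.53, the median distance to a start was 8268 bp, and 1 of 34 (2.94%, 0.521 to 14.9) was CpG-rich. Their median GC content was 46.8%, against 62.2% at the 16 coding sites. Besides Synrg and Usp47, and named after their values were seen, they included the paraplegin gene Spg7 (12.8 and 15.8), the ciliary gene Tmem231 (11.5 and 14.8, over a RefSeq start), the splicing factor gene Sf3a1 (11.0 and 15.8), the cytokine receptor gene Lifr (11.0 and 12.5) and the kinase gene Braf (7.07 and 14.5). At the 173 sites with no summit in an exon the median lower fold was 8.21 and the median GC content 49.5%, and 17 (9.83%, 6.23 to 15.2) were CpG-rich.

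Among 12 gene lists, the oligodendrocyte list had 4 of 25 genes with an exon site (16%, against 1.3% of all protein-coding genes). The lists were chosen with results of these data known, so the counts are a description. Mbp, a major myelin protein gene, had folds of 9.28 and 12.5 with both summits in the 3′ UTR of exon 4, but the replicate 2 summit was outside the site, in a peak that covered a start. Olig1, a basic helix-loop-helix factor of the lineage, had 8.84 and 8.21. Its replicate 1 summit was past the single exon, while the replicate 2 summit was outside the site and upstream of the gene start, in a peak that covered the start. Tns3, a tensin gene of new oligodendrocytes, had summits in introns at both of its sites, with 10.2 and 12.8 over exons 25 to 27 and 7.51 and 8.54 over exon 13 of 31. The highest lower fold among them was the 10.2 of Tns3, and 15 of the 25 genes (60%) had a site at their own start, against 39.8% of all protein-coding genes.

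The SOX list had 3 of 19 genes (15.8%, against 1.3% of all protein-coding genes). Sox21 is described above. Sox4, a SOX factor gene of immature neurons, had 9.72 and 20.4 over its single exon, where the summit was in 3′ UTR in replicate 1 and in 5′ UTR in replicate 2. The 20.4 of replicate 2 is the fold of a peak that covered the gene start and had its summit 2794 bp from that of replicate 1, outside the site. Sox6, expressed in interneurons of the medial ganglionic eminence and in oligodendrocyte progenitors, had 6.19 and 9.20 with both summits in the 3′ UTR of exon 16, and its site was exon throughout (1958 bp).

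The remaining counts are read against the same 1.3% of genes with an exon site and 39.8% with a site at their own start. Of the collagen, laminin and integrin list 3 of 42 genes had an exon site: Itga2, Col9a1 (9.28 and 12.2) and Itgb4 (8.39 and 6.57). Of the axon guidance list 2 of 38 did, Sema3d, a secreted semaphorin gene (11.0 and 11.5), and Plxna2, a semaphorin receptor gene (8.39 and 11.2). Of the voltage-gated channel list 2 of 33 did, the sodium channel gene Scn8a (6.19 and 8.87) and the calcium channel gene Cacna1b (6.63 and 7.23). The MAPK feedback list had Spry2 (9.72 and 6.57) of 18 genes and the chromatin list had 1 gene of 37. None of 22 astrocyte and radial glia, 22 ganglionic eminence and interneuron, 16 dorsal telencephalon, 26 ETS family and 23 Notch genes had one, and at 1.3% under 1 gene would be expected in each of these lists. A site at their own start was held by 13, 5, 3, 10 and 15 of them. Apart from Itgb4 and Spry2, whose summits fell in different features in the replicates and, for Spry2 in replicate 1, outside the site, both summits lay in introns at the genes named in these lists.

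The 200 bp at the centre of exon sites had a median GC content of 49.5% (quartiles 44.5 and 56), against 47% at intronic, 48% at intergenic and 62.5% at start sites. Tiles of 200 bp laid over the exons, introns and remaining bases over 1 kb from starts had medians of 46%, 42.5% and 40.5%. Exon, intronic and intergenic sites were thus each above the tiles of their own kind, and start sites had no tiles. Exon tiles are only a rough match for exon sites, whose bases were exon to a median of 16.8%. The CpG content over that expected had a median of 0.274 at exon, 0.232 at intronic, 0.270 at intergenic and 0.764 at start sites. CpG-rich centres made up 32 exon sites (11.7%, 8.43 to 16.1), against 1.84% (1.26 to 2.68) of intronic, 5.14% (4.20 to 6.28) of intergenic and 59.9% of start sites. The intervals of exon and intronic sites did not overlap, which describes these sites and was not tested further. Repeats covered a median of 13.3% of exon sites and 14.2% of intronic sites.

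All summits of filtered peaks over 1 kb from starts, with no demand that the replicates share them, were counted against the bases available. Coding sequence held 66 summits in replicate 1 and 61 in replicate 2, a density of 2.64 (95% Poisson interval 2.04 to 3.36) and 2.44 (1.87 to 3.13) per Mb. Introns had 2.53 (2.43 to 2.64) and 3.23 (3.11 to 3.35), untranslated exons 2.54 (2.01 to 3.17) and 3.42 (2.79 to 4.14), and bases outside protein-coding transcripts 1.51 (1.45 to 1.57) and 1.82 (1.76 to 1.89). The intervals of coding sequence and introns overlapped in both replicates.

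Density was highest at 60% GC and above in every territory, and coding sequence is GC-rich, so densities were also compared within GC classes. Between 45% and 60% GC, coding sequence had 1.55 summits per Mb (0.980 to 2.32, 23 summits) in replicate 1 and 1.88 (1.25 to 2.72, 28 summits) in replicate 2. Introns of the same GC content had 3.56 (3.36 to 3.77) and 4.39 (4.17 to 4.62), untranslated exons 3.15 (2.24 to 4.31) and 4.53 (3.42 to 5.88). In both replicates coding sequence was below introns and their intervals did not overlap. At 60% GC and above, coding sequence had 14.1 (9.98 to 19.4) and introns 16.5 (13.5 to 19.9) in replicate 1, which overlap, and 9.65 (6.30 to 14.1) and 21.2 (17.8 to 25.1) in replicate 2, which do not. In the V5 control 7 and 1 peak summits fell in coding sequence, or 0.280 and 0.0400 per Mb, and 67 and 17 in introns, or 0.0774 and 0.0196 per Mb. Control density was thus higher in coding sequence than in introns, on 7 and 1 summits and without a split by GC content.

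**Figure D4:**
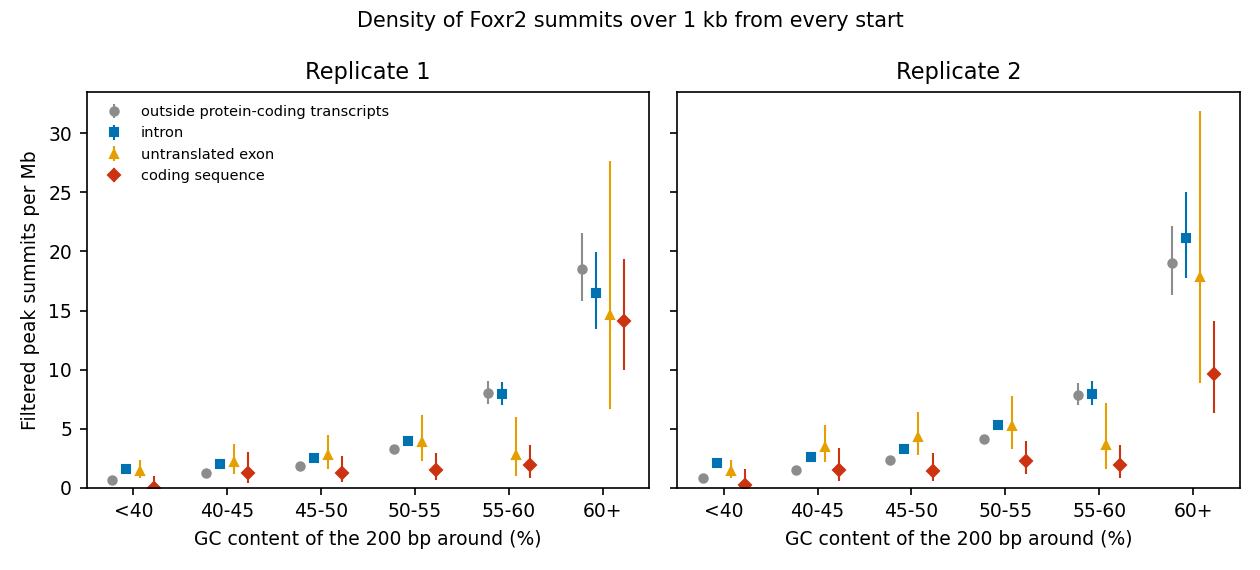
Summits of filtered Foxr2 peaks per Mb (vertical) over 1 kb from every start, by the GC content of the 200 bp around (horizontal, %), in replicate 1 (left) and replicate 2 (right). Symbols give the territory and bars the 95% Poisson interval. Coding sequence (diamonds) lies below introns (squares) in every class of both replicates, with overlapping intervals in some, and at 60% and above it reaches 14.1 and 9.65 per Mb.

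Short motifs were searched on both strands in the 200 bp at the site centre. The ETS core CCGGAA was present at 15 exon sites (5.49%, 3.36 to 8.87), against 3.82% of intronic, 3.43% of intergenic and 14.97% of start sites and 3.19% of all exon tiles of the same length away from starts. The fuller ELK-type letters CCGGAAGT, which contain the core, were present at 1 exon site (0.366%) and 3.48% of start sites, and that exon site lay over Nup160, a nuclear pore gene (8.84 and 10.2, named after its values were seen). Sites with the core included Ptprb (14.6 and 18.1), Mbp (9.28 and 12.5), Itgb4 (8.39 and 6.57) and Scn8a (6.19 and 8.87), and 9 sites (3.30%, 1.74 to 6.15) held it when the 200 bp were centred on the mean of the summits, against 4.34% of intergenic sites. The interval at the site centre began just above the share in exon tiles, the interval at the summits took that share in, and both lay below the 14.97% of start sites.

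AP-1 letters (TGACTCA or TGAGTCA) were present at 22 exon sites (8.06%, 5.38 to 11.9), against 4.95% of intronic and 6.97% of intergenic sites and 2.90% of exon tiles. Of the leading sites, Dip2b and Gdf15 had them at the centre. SOX letters (CCATTGT or CCTTTGT) were at 28 exon sites (10.3%, 7.19 to 14.4), against 10.04%, 12.5% and 7.097%, with Itga2 among them. The SP/KLF letters GGGGCGGGG were at 9 (3.30%, 1.74 to 6.15), against 1.06%, 2.23% and 0.441%, with Shf among them. The forkhead letters TGTTTAC were at 6 (2.198%, 1.01 to 4.71), against 3.39%, 3.14% and 2.97%. At the site centre the interval of exon sites took in the intergenic share for each of these motifs, while for AP-1, SOX and SP/KLF it lay above the share in exon tiles. Those tiles were not matched for GC content, nor for the bases outside exons that most exon sites hold. In windows centred on the mean of the summits this changed. AP-1 was at 4.03% of exon sites (2.265 to 7.07), below the 4.24% of intronic and 5.26% of intergenic sites and with the tile share inside its interval. SOX was at 6.96% (4.50 to 10.6), below the 10.7% of intronic and 9.71% of intergenic sites. It was also below the tile share, which its interval took in. Summits were within 200 bp of each other at 170 exon sites (62.3%). At the rest they were further apart than the window is wide, so these shares do not describe the binding maximum at every site. SP/KLF was at 2.56% (1.25 to 5.20), its interval still above the tile share.

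**Figure D5:**
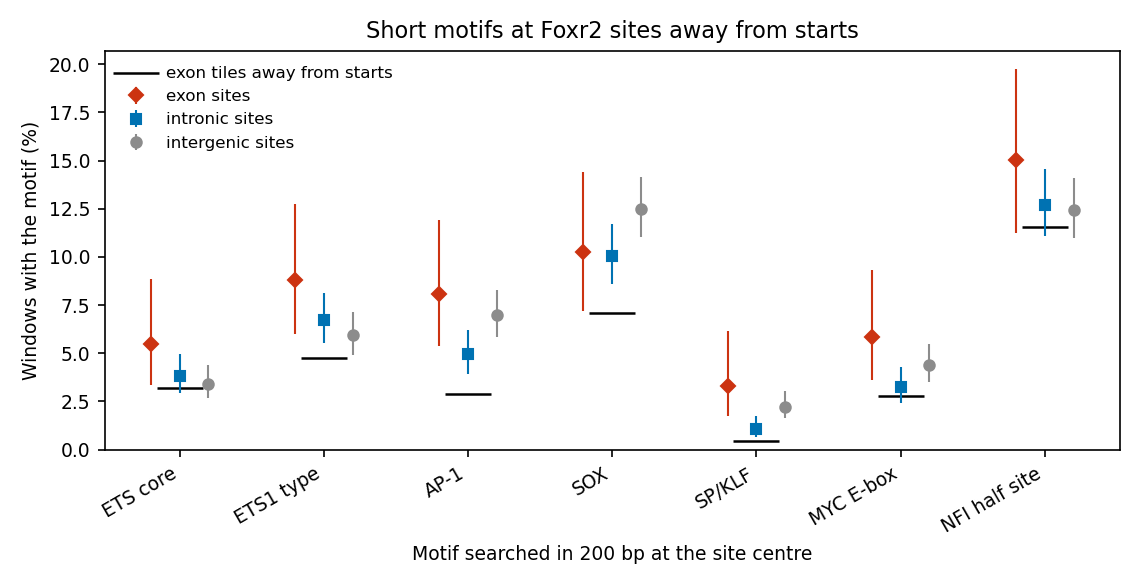
Share of 200 bp windows at the site centre that hold a motif (vertical, %), for 7 motifs (horizontal), at exon (diamonds), intronic (squares) and intergenic sites (circles), with 95% Wilson intervals. Black lines give the share in all exon tiles away from starts. AP-1 letters stand at 8.06% of exon sites and 2.90% of exon tiles.

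Every autosome held exon sites. Chromosome 1 held 32 and chromosome 11 held 30, which is 16.4 and 24.6 per 100 Mb, and chromosome 16 held 1, that of Olig1. As a share of all sites away from starts, exon sites made up 1.37% on chromosome 16 and 10.9% on chromosome 7, the extremes among autosomes, and 2 of 14 on X. Chromosome 11 had the highest density of reproducible sites of all kinds as well, 967 per 100 Mb against 469 on chromosome 1.

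The thresholds of the rule cut through a continuous range. With no minimum fold 811 stretches would have been exon sites, of which 538 had a lower fold at or under 6. Just inside were Ino80d (6.19 and 8.54) and Dnajb12 (6.19 and 6.57), among 32 exon sites at the lowest fold, and just outside were Prss56 (7.51 and 5.91), Ngef (8.84 and 5.91) and Rab7b (7.51 and 5.91). For the distance to a start, Whrn (1023 bp), Gucy2e (1027 bp) and Clec11a (1028 bp) were just inside, and Unc13a (1000 bp), Tsc22d4 (999 bp) and Zbtb18 (975 bp) just outside. The smallest overlaps with an exon were 5 bp at Plxna2, 6 bp at Cacna1b and 10 bp at Nqo1.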

How the data were processed

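CUT&RUN with a V5 antibody was analysed in 2 Foxr2 p53LOF and 2 V5 control samples, grouped by their titles. Per the labels and methods, the authors trimmed reads (Trimmomatic 0.39), aligned them to mm10 (BWA 0.7.17), removed duplicates (Picard 2.26.6) and called peaks library by library (MACS2 2.2.7.1); no input library is named. The deposited fold enrichment is a MACS2 ratio, computed by the authors, and comes with the deposited −log10 p-value and −log10 q-value, which the sites did not use, and a score derived from the q-value. A peak list holds no read total, so depth was read from fragments at the summit: all folds under 20 were whole multiples of the fold of 1 fragment within 0.02. All exon sites also passed the q filter of the study, their lowest −log10 q being 7.43 and 9.59 in the replicates. The intersection with ATAC peaks made in the study was not used here.

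Filtered peaks of the replicates had to share at least 1 bp. Starts, exons and genes came from GENCODE M21 and bases from the RefSeq GRCm38.p6 genome; shares and densities by class use the assembled chromosomes (1415 of 1416 intronic sites). Positions count from 1. Motifs (16) were exact letters in windows of 200 bp. Intervals are 95% Wilson (shares) or exact Poisson (counts). With 2 replicates and sites chosen by fold, no test was run and no p-value is given. Scripts (Python 3.11.15, pysam 0.24.0) were tested on simulated data. The members and lists were chosen with earlier results of these data known. Named genes are those of the 25 leading sites by lower fold, listed genes with an exon site, genes with the most exon sites and 3 sites each side of the thresholds. Each of 19 alternatives changed 1 choice, except a fold above 4, which was paired with a −log10 q above 6. Some results for single genes and for 1 motif are not reported here.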

Additional observations from a re-analysis of the deposited data

How the results depend on the processing

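The number of exon sites stayed within 1.5 times of 273 under most settings, and moved to 72 with a fold above 10, 146 over 5 kb from starts, 416 with starts of protein-coding transcripts only and 64 where at least 50% of the site had to be exon. With 1 replicate in place of both it was 353 to 467. The share of protein-coding genes with an exon site moved to 0.418% (fold above 10), 1.67% (fold above 4 together with a −log10 q above 6), 1.49%, 1.03% and 0.731% (over 500 bp, 2 kb and 5 kb), 1.92% (protein-coding starts), 0.395% (50% exon) and 1.66% to 2.16% (1 replicate). The share with both summits in an exon moved to 27.2% with that lower fold and q limit and 76.6% with 50% exon. For both summits in coding sequence it was 17.2% with 50% exon. With 1 replicate a site has only 1 summit, which was in an exon at 25.7% to 31.7% of sites and in coding sequence at 8.35% to 14.7%. These are not like the shares with both summits. The single summits of the 273 sites were in coding sequence at 12.5% in replicate 1 and 10.6% in replicate 2. Sites over a last exon moved to 43.2% over 5 kb from starts and 87.5% with 50% exon. The median lower fold was 12.8 with a fold above 10 and 7.07 with the limits on fold (4) and q, by construction. Median GC moved to 52% with 50% exon. The ETS core moved to 10.9% with 50% exon, 3.30% at the summits and 11.0% in windows of 500 bp, and the share within 5 kb of a start to 53.4% (500 bp), 32.1% (2 kb), 29.8% (protein-coding starts), 53.1% (50% exon) and 39.6% where both whole peaks were over 1 kb from starts. Beyond settings that change a threshold or window by construction, the cause was not tested. No exon-site value here has a sign to reverse, but the order of motif shares did change in windows centred on the mean of the summits. Exon sites fell below intergenic sites for the ETS core (3.30% against 4.34%) and AP-1 (4.03% against 5.26%), and below exon tiles for SOX (6.96% against 7.097%). They also fell below intronic sites for AP-1 (4.03% against 4.24%) and SOX (6.96% against 10.7%). Adding RefSeq starts, asking both whole peaks to be away from starts, and asking both summits to be inside the site were chosen after seeing the data, and gave 261, 240 and 251 sites. No paired analysis was possible because the results come from no test. The fragments at a summit, 13 to 18 at the weakest sites, limit single folds.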
